A study of Mus musculus with 50 samples.

Results

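D2-MSNs of mice that stayed resilient to chronic social defeat stress (CSDS) were compared with D2-MSNs of control mice. The members are the immunoprecipitated (IP) libraries labelled D2 Res 1 to 5 and D2 Con 1 to 5, taken without the input libraries, which are 10 of the 50 samples of the series. All came from male RiboTag (RT); D2-Cre mice on C57BL/6, aged 8 to 12 weeks, in which a bacterial artificial chromosome with *Drd2* regulatory sequence (line ER44) drives Cre and Cre switches on an HA-tagged copy of the ribosomal protein Rpl22. Con and Res mice therefore carried the same transgenes. Res mice met an aggressive CD1 male once a day over up to 10 days and still approached a social target in the social interaction (SI) test 24 h later, whereas Con mice were kept with mice of their own strain. Each library was made from NAc punches of 2 pooled mice of the same group with a like SI ratio, so a library is a pool and the spread between libraries is a spread between pools. The same line gave 5 IP libraries of susceptible mice (D2 Sus) and 3 input libraries of each group, which are used here only for comparison. This Cre line is also active in cholinergic interneurons, so the IPs carry their transcripts too.

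D2-MSNs are the medium spiny neurons of the striatum that express the dopamine D2 receptor (*Drd2*) together with an adenosine receptor (*Adora2a*) and proenkephalin (*Penk*). In the NAc they send GABAergic output mainly to the ventral pallidum, and their activity has been tied to aversion and to the avoidance that follows defeat. RiboTag recovers the mRNA on ribosomes, so a level here is a level of ribosome-bound mRNA in Cre-positive cells and not of total RNA. The genes described first encode zinc finger proteins of a cluster on chromosome 2, of which 8 rose in D2 Res. Such genes arise by tandem duplication, and those with a KRAB domain encode DNA-binding repressors that recruit TRIM28 and H3K9 methylation, often at transposable elements.

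The 8 genes of this cluster that rose have closely similar sequence before their starts, which is shown first because 5 of these genes passed adjustment in the fit with a replicate block described below. RefSeq promoter entries on GRCm38.p6 were found for 8 of the 8, and a stretch of 203 bases could be aligned in all of them without a gap. Genes of the cluster that were not called were not aligned, so whether they share this sequence was not tested. In *Zfp970* the capitals mark the motif CCAAT, at the right on the printed strand and at the left on the opposite strand. In the other genes the capitals mark the bases that differ from *Zfp970*. *Zfp970* is at chr2:177464527-177464729 on the plus strand, *Zfp971* at chr2:178023060-178023262 on the plus strand, *Gm14322* at chr2:177759055-177759257 on the plus strand, *Gm14325* at chr2:177840356-177840558 on the minus strand and *Gm14326* at chr2:177957327-177957529 on the minus strand, each printed 5′ to 3′ on its own strand.
Zfp970: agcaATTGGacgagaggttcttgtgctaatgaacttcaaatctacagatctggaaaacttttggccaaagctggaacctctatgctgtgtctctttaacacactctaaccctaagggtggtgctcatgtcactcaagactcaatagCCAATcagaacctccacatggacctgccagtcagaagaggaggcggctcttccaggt
Zfp971: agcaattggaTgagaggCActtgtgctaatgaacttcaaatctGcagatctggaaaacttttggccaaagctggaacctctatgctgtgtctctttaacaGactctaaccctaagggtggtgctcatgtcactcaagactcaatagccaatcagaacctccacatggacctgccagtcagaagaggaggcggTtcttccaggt
Gm14322: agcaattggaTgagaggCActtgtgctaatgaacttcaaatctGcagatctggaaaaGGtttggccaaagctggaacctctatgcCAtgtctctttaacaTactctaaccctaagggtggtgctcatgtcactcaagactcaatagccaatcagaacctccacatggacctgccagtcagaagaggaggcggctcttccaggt
Gm14325: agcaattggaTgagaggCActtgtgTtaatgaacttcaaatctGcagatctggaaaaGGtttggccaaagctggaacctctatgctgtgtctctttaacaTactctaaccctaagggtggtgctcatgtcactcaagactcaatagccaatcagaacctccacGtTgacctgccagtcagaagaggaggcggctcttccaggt
Gm14326: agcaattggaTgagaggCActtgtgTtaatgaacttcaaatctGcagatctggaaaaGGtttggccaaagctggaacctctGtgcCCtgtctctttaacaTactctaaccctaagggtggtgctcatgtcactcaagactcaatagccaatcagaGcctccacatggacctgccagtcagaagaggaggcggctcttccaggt

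Across the 203 bases, *Zfp971* differed from *Zfp970* at 6 positions (97% identity), *Gm14322* at 9 (95.6%), *Gm14325* at 10 (95.1%) and *Gm14326* at 12 (94.1%). The 3 windows not printed, of *Gm14295*, *Gm14305* and *Gm14403*, differed at 2, 9 and 10 positions. CCAAT, searched on both strands, stood in the 250 bases before the start of all 8 genes and in 33.8% of 32851 promoters. The letters TATAAA of a TATA box, searched in the same way, stood in 0 of the 8 and in 12.4% of all promoters. The core TGACG of a cAMP response element stood in 0 of the 8 and in 17.8% of all. The GC box letters GGGCGG stood in 0 of the 8 and in 32.7% of all. As the 8 sequences are near copies of each other, these counts are not 8 separate observations, and no enrichment was tested. These windows lie before the starts and are not part of the mRNA, so the transcripts were compared too. In GENCODE M21 transcripts of *Gm14322*, 60.1% of the stretches of 150 bases, the length of 1 read, also occur letter for letter in transcripts of another gene. The share was 52.5% for *Gm14305*, 46.9% for *Gm14326*, 42.5% for *Gm14325* and 37.7% for *Gm14295*. It was lower for *Zfp971* (12.9%), *Zfp970* (6.48%) and *Gm14403* (0%). Of stretches of 50 bases, 36.1% to 88.9% were shared. The deposited counts keep an entry for reads with no unique alignment, at 4.31 to 5.76% of reads in D2 Res and 4.57 to 6.06% in D2 Con. Whether such reads also counted towards genes is not given in the sources used here. Values of single genes of the cluster are therefore uncertain, and their sum is given beside them.

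Depth was 24525157 to 29680185 counts on genes in D2 Res and 21591075 to 28563141 in D2 Con. The defining markers of D2-MSNs were present in all 10 IPs, with *Drd2* at 291 to 371 CPM (counts per 1000000 gene counts after TMM scaling) against 86.4 to 127 in the D2 inputs and 84.9 to 119 in the D1 IPs. *Penk* stood at 4928 to 6266 CPM against 719 to 845 in inputs, and *Adora2a* at 707 to 941 against 128 to 188. The myelin gene *Mbp* was at 182 to 265 CPM against 2050 to 2490 in inputs, and the astrocyte gene *Aqp4* at 2.62 to 5.49 against 80.7 to 105. *Drd1*, which marks the other MSN class, still read 107 to 165 CPM against 164 to 214 in inputs. *Pdyn* of that class read 72.5 to 123 against 161 to 183. Its markers *Tac1* (155 to 242 against 137 to 163) and *Chrm4* (51.5 to 83.3 against 59.3 to 75.5) overlapped the inputs. *Slc17a7* of cortical neurons read 28.4 to 207 against 313 to 737. The cholinergic gene *Chat* was at 16.2 to 33.4 CPM. The IPs were thus enriched for D2-MSN markers and depleted of *Mbp* and *Aqp4*, and they still held transcripts of D1-MSNs and other cells.

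Libraries with the same number in D2 Res and D2 Con deviated from their group means together, while the labels do not say what a number marks. *Rn45s*, the ribosomal RNA precursor, took 0.764, 1.54, 1.52, 1.58 and 5.11% of gene counts in D2 Res 1 to 5 and 1.67, 7.30, 2.00, 2.07 and 5.63% in D2 Con 1 to 5. It was lower in D2 Res than in the D2 Con library of the same number in 5 of 5 numbers. *Grin2b*, an NMDA receptor subunit, read 356 CPM in D2 Res 5 and 464 in D2 Con 5 but 107 to 196 in the other 8 libraries. Both libraries numbered 5 also lay apart on the first principal component, which held 26.0% of the variance, and D2 Con 1 lay apart on the next with 19.2%. Several results are also given with the number as a block, while those given without it may change with it. The sequencing set and the defeat cohort of each library are not named in the labels, so their part in any difference was not tested beyond this block.

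Few genes differed between D2 Res and D2 Con, and most differences were small. Of 14224 genes tested with edgeR's quasi-likelihood test, 430 passed an unadjusted p of 0.05, the threshold the study uses for stress groups. Such genes are called here, and rose or fell is written of these alone. They are 3.02% of the genes, against the 5% that this threshold lets pass where no gene differs. Among them 223 genes (1.57%) were higher in D2 Res and 207 (1.46%) were lower. After Benjamini-Hochberg adjustment over all genes 0 passed (0%), and the lowest adjusted p was 0.76, so that each gene below is a candidate by the unadjusted threshold only. A value such as 0.95 ± 0.20 is a log2 fold change, D2 Res minus D2 Con, with its standard error (SE). The higher genes had a median log2 fold change of 0.36 and the lower genes of -0.18. A fold over 1.5 was reached by 99 of the 430 and a fold over 2 by 47, while 76 of the 430 had a mean under 1 CPM. In 66 genes (0.464%) the 5 D2 Res libraries did not overlap the 5 D2 Con libraries, with D2 Res above in 32 and below in 34. Such gaps also arise where no gene differs, and their expected share was not computed. A gap alone is therefore not evidence of a difference. As these are bulk pools, fewer cells of a type and less RNA per cell cannot be told apart in any of these differences.

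**Figure D1:**
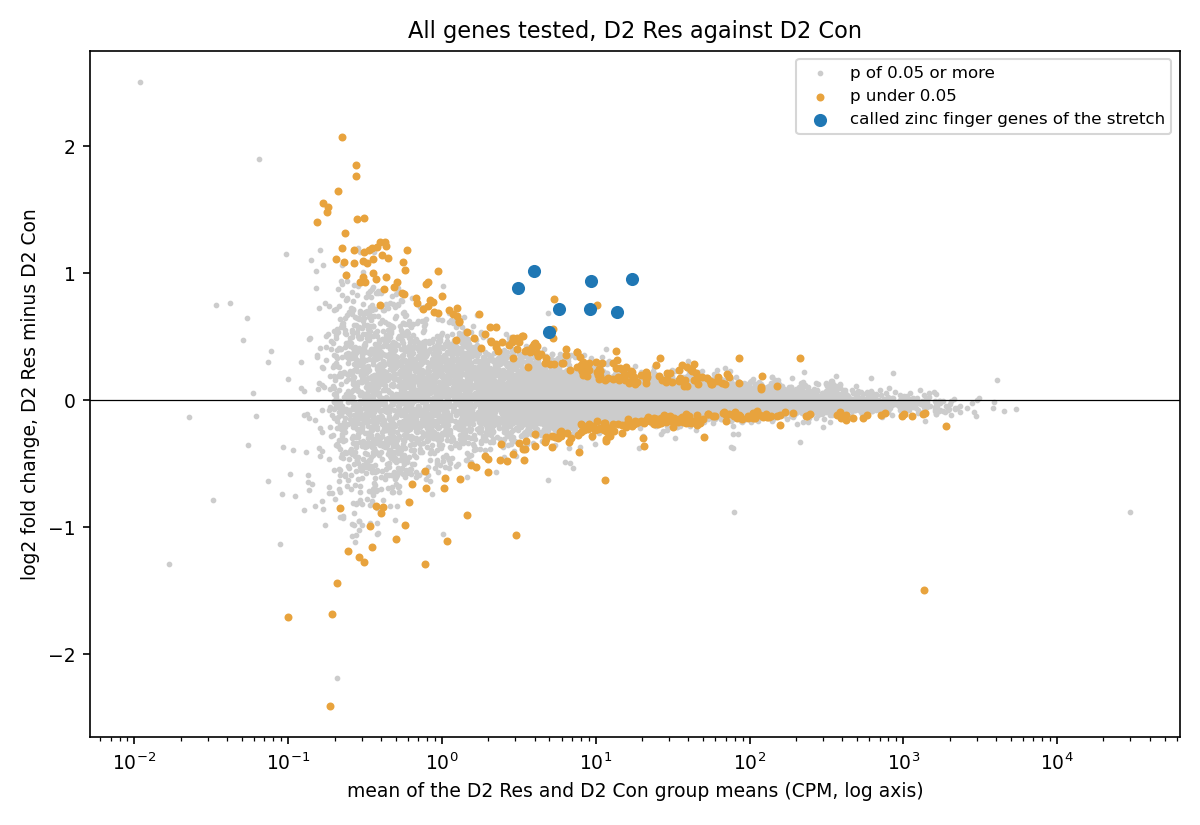
Each point is 1 of the 14224 tested genes, with its mean CPM over the 10 libraries on a log axis and its log2 fold change, D2 Res minus D2 Con, on the vertical axis. Genes past an unadjusted p of 0.05 are coloured, 223 higher and 207 lower, and the larger folds sit at low levels.

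With the number as a block within the 10 libraries, 706 of 13501 genes (5.23%) passed the unadjusted threshold, 417 higher (3.09%) and 289 lower (2.14%). In that fit 7 genes (0.0518%) passed an adjusted p of 0.05, and all 7 were higher in D2 Res. They were *Zfp970*, *Gm14325*, *Zfp971*, *Gm14322* and *Gm14326* of the zinc finger cluster, the meiotic cohesin subunit gene *Rec8*, and the pseudogene *Tmem181b-ps*. With the block over all 28 IPs, 0 genes passed.

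Genes of the zinc finger cluster rose in D2 Res by 1.45-fold to 2.02-fold. The cluster lies between *Zfp831* and *Phactr3* on chromosome 2, from 175275125 to 178078476 of GRCm38, and was singled out after its values were seen. The annotation lists 74 genes there, 40 of them protein-coding, and 10 could be tested. Of these, 8 rose (80%, against 1.57% of all tested genes that rose) and 0 fell, with a median log2 fold change of 0.80 over the 10. The other two were not called. *Gm14440* stood at 0.90 ± 0.57 with 0.0412 to 0.513 CPM, and *Zfp931* at 0.05 ± 0.16 (95% interval -0.27 to 0.37).

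*Zfp970*, at chromosome 2, 177464733 to 177478129 on the plus strand, had the lowest p of all genes. Its CPM were 19.2, 27.3, 21.0, 26.7 and 19.2 in D2 Res 1 to 5 and 9.38, 12.4, 10.6, 16.4 and 9.74 in D2 Con 1 to 5. Every D2 Res library stood above every D2 Con library, and libraries 2 and 4 were the highest in both groups. The difference was 0.95 ± 0.20 or 1.93-fold (adjusted p = 0.76 in edgeR with Benjamini-Hochberg adjustment). With the number as a block it was 0.96 ± 0.08 (adjusted p = 2.3e-05). Leaving out both libraries of any 1 number kept the blocked adjusted p of *Zfp970* between 2.9e-05 and 0.0013.

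*Gm14322*, at chromosome 2, 177759288 to 177770472 on the plus strand, had the largest fold of the cluster. It read 4.64, 4.97, 5.06, 7.12 and 4.87 CPM in D2 Res 1 to 5 and 2.19, 2.25, 2.18, 3.77 and 2.75 CPM in D2 Con 1 to 5. The groups did not overlap, and library 4 was again the highest of both. It rose by 1.02 ± 0.24 or 2.02-fold, and with the block the difference was 1.03 ± 0.14 (adjusted p = 0.0081).

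*Zfp971*, at chromosome 2, 178023284 to 178034022 on the plus strand, read 10.1, 15.4, 10.6, 14.3 and 11.01 CPM in D2 Res 1 to 5 and 4.01, 6.27, 6.65, 10.5 and 4.48 CPM in D2 Con 1 to 5. D2 Con 4 reached the range of D2 Res, so the groups overlapped, although D2 Res was above D2 Con within each number. The gene rose by 0.94 ± 0.24 or 1.91-fold, and with the block the difference was 0.98 ± 0.13 (adjusted p = 0.0076).

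*Gm14325* (177831791 to 177840336, minus strand) read 16.6, 20.2, 15.3, 19.8 and 13.8 CPM in D2 Res 1 to 5 and 8.66, 12.2, 8.98, 15.2 and 7.74 CPM in D2 Con 1 to 5. Here too only D2 Con 4 reached into the D2 Res range. The rise was 0.70 ± 0.23, and 0.72 ± 0.09 with the block (adjusted p = 0.0041). *Gm14326* (177935993 to 177957297, minus strand) read 9.78, 14.7, 9.83, 13.0 and 9.57 CPM in D2 Res 1 to 5 and 4.97, 7.69, 6.01, 9.97 and 5.73 CPM in D2 Con 1 to 5. D2 Con 4 lay above the 3 lowest D2 Res libraries. The rise was 0.72 ± 0.22, and 0.74 ± 0.11 with the block (adjusted p = 0.012). The other three called genes were *Gm14305* (0.72 ± 0.23, 1.64-fold), *Gm14403* (0.88 ± 0.31, 1.84-fold) and *Gm14295* (0.54 ± 0.23, 1.45-fold). The call of *Gm14295* was lost without D2 Con 2 (0.50), D2 Con 3 (0.42) or D2 Res 4 (0.42).

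Summed over the 8 called genes, D2 Con 1 to 5 held 38.6, 51.6, 42.7, 71.8 and 38.9 CPM. D2 Res 1 to 5 held 77.2, 100.3, 78.7, 100.5 and 72.9 CPM. All 5 D2 Res sums were above all 5 D2 Con sums, with D2 Con 4 just below the lowest of D2 Res. The 8 genes were summed because they were called higher in these same libraries, so this gap is no separate support. Reads exchanged among the 8 genes leave this sum as it is, while reads exchanged with other genes do not. D2 Sus 1 to 5 held 49.8, 51.9, 87.2, 92.9 and 96.2 CPM, so that libraries 1 and 2 stood among the D2 Con values and libraries 3 to 5 among those of D2 Res.

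**Figure D2:**
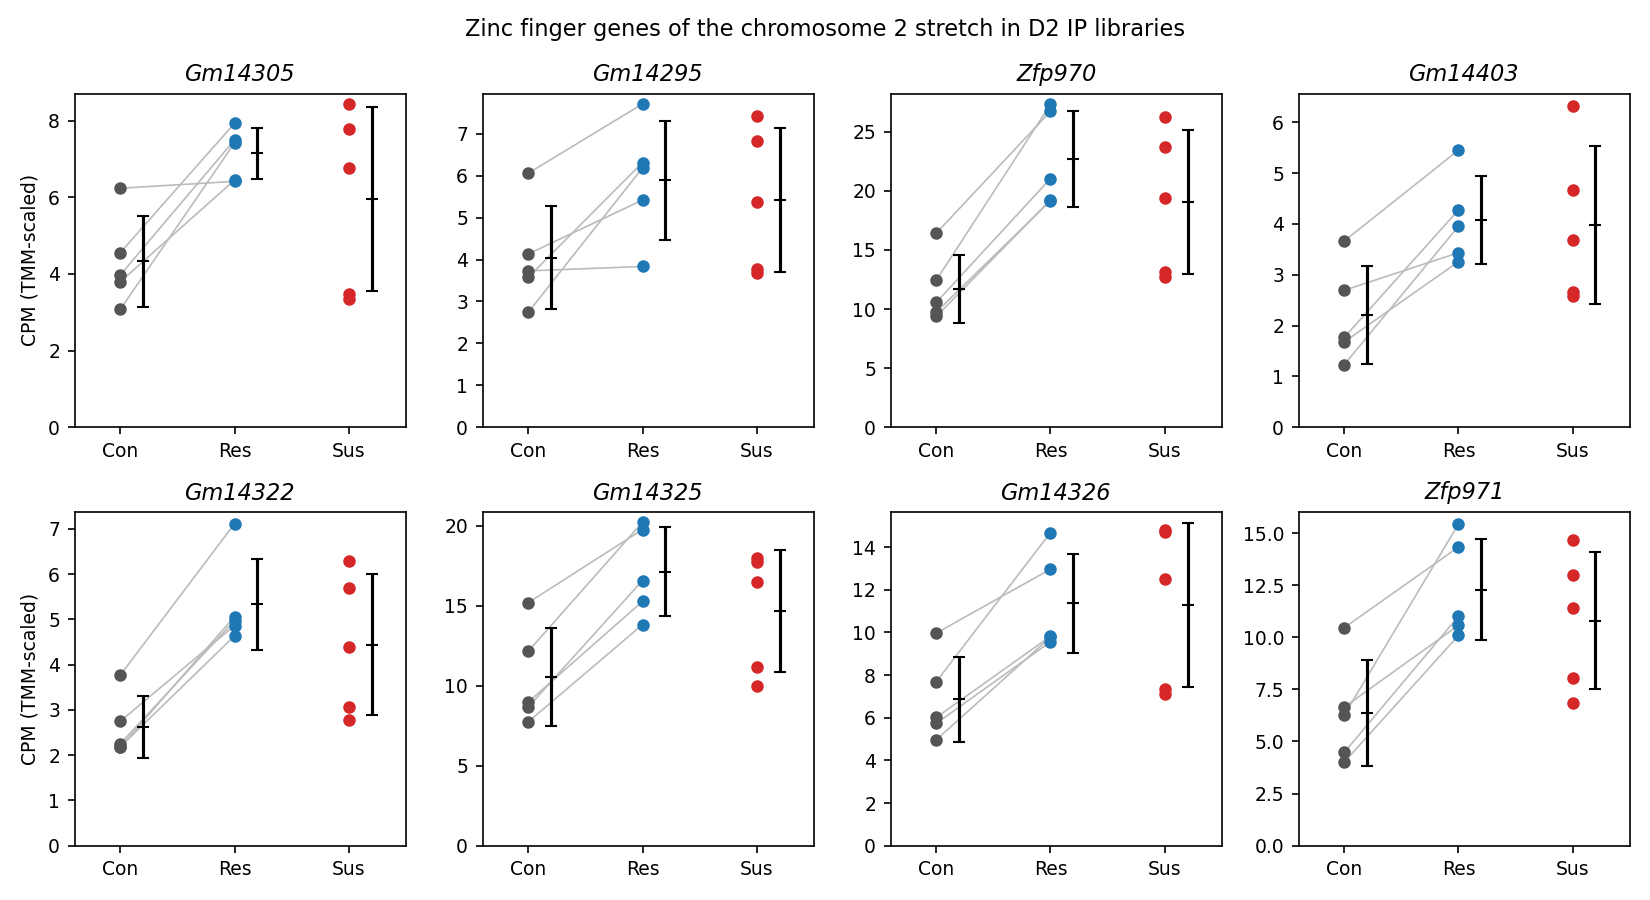
CPM of the 8 called zinc finger genes in each D2 Con, D2 Res and D2 Sus library, with bars for the mean ± SD of 5 libraries and grey lines that join libraries of equal number. For *Zfp970* the D2 Res points lie from 19.2 to 27.3 CPM, above all D2 Con points, and the D2 Sus points spread from 12.7 to 26.3.

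The comparison of D2 Sus with D2 Con uses the same 5 control libraries. There the median log2 difference of the 10 tested genes was 0.58 and 5 of them rose. For *Zfp970* it was 0.69 ± 0.20. Between D2 Res and D2 Sus 236 of all tested genes (1.66%) passed the unadjusted threshold and 0 passed after adjustment. None of the 10 cluster genes was among the 236, and *Zfp970* differed by 0.26 ± 0.19. In D1-MSNs of resilient against control mice (4 libraries each) the cluster median was 0.22 with 0 of 10 called. The summed level there was 43.8 to 67.4 CPM in D1 Con and 45.8 to 67.9 in D1 Res. D1 Sus 1 to 5 held 95.9, 45.8, 79.4, 48.6 and 63.4 CPM, so single D1 libraries reached the range of D2 Res. The difference between the Res effect in D2 and that in D1 was tested as an interaction, in which 335 of all genes (2.36%) passed the unadjusted threshold and 0 the adjusted one. *Zfp970* (0.75 ± 0.30) and *Gm14322* (0.95 ± 0.36) were among them, and the other 8 cluster genes were not.

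In the inputs, which hold RNA of all NAc cells, 286 of 15063 genes (1.9%) passed the unadjusted threshold between 3 Res and 3 Con libraries and 0 passed after adjustment. None of the 10 cluster genes was called, while 9 of the 10 were above zero, with a median of 0.47. *Zfp970* read 15.9, 17.4 and 19.7 CPM in the Res inputs and 9.19, 10.3 and 17.6 in the Con inputs. The groups overlapped through the Con library at 17.6, and the log2 difference was 0.50 ± 0.30.

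Zinc finger genes elsewhere had a smaller difference at the median. Of 325 tested genes named Zfp with a number, 16 rose and 3 fell (5.85% called, against 3.02% of all genes), with a median log2 fold change of 0.03, and 62.5% of them lay above zero. Without the 3 of them that lie in the cluster, 14 of 322 rose and 3 fell (5.28%). This set was chosen after the data were seen. Outside the cluster, *Zfp420* rose by 0.32 ± 0.10 and *Zfp62* by 0.16 ± 0.06, while *Zfp574* stood at -0.14 ± 0.05 and *Zfp746* at -0.13 ± 0.05, both called lower.

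*Rec8*, at chromosome 14, 55618037 to 55625395, encodes a cohesin subunit known from meiosis. It read 13.9, 11.6, 10.3, 10.8 and 17.6 CPM in D2 Res 1 to 5 and 7.00, 5.10, 5.04, 7.58 and 13.5 CPM in D2 Con 1 to 5. The groups overlapped through D2 Con 5, yet D2 Res was above D2 Con in each number. It rose by 0.75 ± 0.33, and with the block the difference was 0.80 ± 0.12 (adjusted p = 0.012). Without the block the call was lost when D2 Con 1, 2, 3 or 4 or D2 Res 1 or 5 was left out (0.61 to 0.75) and with DESeq2. In the inputs *Rec8* read 11.1, 9.16 and 16.0 CPM in Res and 5.19, 4.86 and 5.49 in Con, without overlap (log2 difference 1.21 ± 0.30, called but not past adjustment). The D2 Sus IPs read 5.70, 13.0, 8.32, 5.30 and 14.4 CPM, some in the range of D2 Con alone and others in that of D2 Res.

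*Tmem181b-ps*, a pseudogene related to *Tmem181a* with reads that may belong to its relative, read 108, 84.6, 86.5, 104 and 94.0 CPM in D2 Res 1 to 5. D2 Con 1 to 5 held 75.2, 69.4, 78.4, 84.3 and 72.4 CPM. The groups did not overlap, by a gap of less than 1 CPM. It rose by 0.33 ± 0.14, and with the block the adjusted p was 0.037. Without the block the call was lost when D2 Con 2, D2 Res 1 or D2 Res 4 was left out (0.28 to 0.30).

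Among called genes with a mean of at least 5 CPM, predicted genes set aside, 11 were higher in all D2 Res than in all D2 Con libraries, among which *Zfp970* and *Tmem181b-ps* are described above. The folds of the other 9 ran from 1.08 to 1.40. The values below are descriptions of genes picked for the gap between their groups, and each has an adjusted p of 1.0 in edgeR.

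*Chpt1*, which makes phosphatidylcholine from CDP-choline, read 7.53, 7.74, 7.28, 7.48 and 6.23 CPM in D2 Res 1 to 5 and 4.93, 5.98, 5.49, 5.81 and 5.27 CPM in D2 Con 1 to 5. D2 Res 5 was the lowest of its group and still above D2 Con 2. The gene rose by 0.40 ± 0.14. *Kdsr*, which acts at an early step of sphingolipid synthesis, read 37.8, 40.2, 39.3, 38.5 and 37.4 CPM in D2 Res 1 to 5 and 34.5, 35.6, 36.7, 36.9 and 35.3 CPM in D2 Con 1 to 5. The groups were less than 1 CPM apart, the rise was 0.11 ± 0.05, and the call was lost with the block within the 10 libraries (0.11 ± 0.05) and kept with the block over 28 IPs.

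*Sh3d19*, an adaptor protein with SH3 domains, had the largest fold of the 9. It read 5.22, 5.96, 5.29, 6.35 and 7.92 CPM in D2 Res 1 to 5 and 3.54, 5.00, 4.21, 4.62 and 4.57 CPM in D2 Con 1 to 5. D2 Res 5 was the highest of all 10. The rise was 0.49 ± 0.15 or 1.40-fold. *Jdp2*, a repressor of the AP-1 family that pairs with Jun, read 15.4, 15.6, 14.02, 12.7 and 13.4 CPM in D2 Res 1 to 5 and 10.8, 12.1, 12.3, 11.2 and 11.8 CPM in D2 Con 1 to 5. All D2 Res values exceeded the highest D2 Con value, and the rise was 0.29 ± 0.09.

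*Suco*, which encodes a SUN domain protein of the endoplasmic reticulum, read 69.9, 68.1, 68.7, 67.3 and 71.2 CPM in D2 Res 1 to 5 and 60.6, 63.2, 63.6, 64.0 and 62.2 CPM in D2 Con 1 to 5. All D2 Res values exceeded the highest D2 Con value, and it rose by 0.14 ± 0.05. The heat shock factor gene *Hsf4* stood at 6.41 to 7.38 CPM in D2 Res and 4.75 to 6.16 in D2 Con (0.29 ± 0.12), and it also rose in the inputs (0.40 ± 0.16). *Faap100*, of the Fanconi anaemia DNA repair complex, was at 6.49 to 8.53 against 5.08 to 6.31 CPM (0.36 ± 0.11). *Lurap1* rose by 0.23 ± 0.10 and *Surf2* by 0.21 ± 0.08, and both were higher than in D2 Sus as well (0.24 ± 0.10 and 0.20 ± 0.08). *Chpt1*, *Lurap1* and *Surf2* overlap genes on the opposite strand, and since the strand setting of the counting is not given, reads of those partners cannot be told apart from theirs. *Hsf4* lost its call without D2 Con 2 (0.24), *Kdsr* without D2 Con 1 or D2 Res 2 and *Lurap1* without any 1 of 5 libraries, while the other 6 kept it without any single library.

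**Figure D3:**
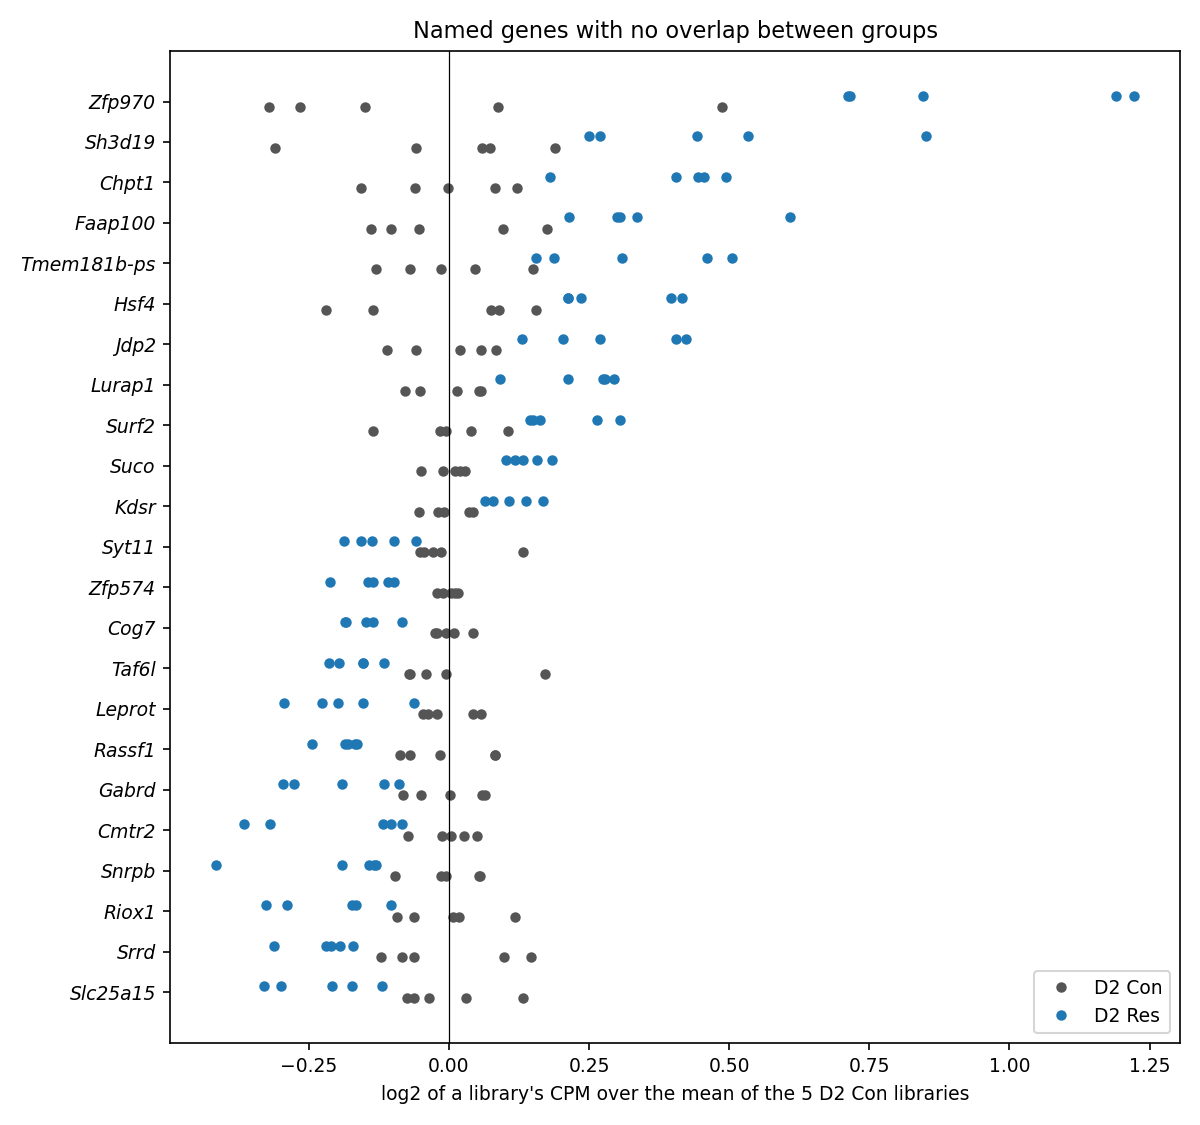
Log2 of each library's CPM over the mean of D2 Con for the 11 named genes that were higher and the 12 that were lower without overlap. Points of D2 Res and D2 Con separate for every gene shown because that gap was the criterion, and the width within each group shows the spread of 5 pools.

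Of 16 genes that met the same criterion in the other direction, the 12 with the largest folds are described, at folds of 0.856 to 0.916. *Gabrd* encodes the delta subunit of extrasynaptic GABA-A receptors, which carry tonic inhibition. It read 148, 140, 156, 159 and 138 CPM in D2 Res 1 to 5 and 177, 176, 160, 163 and 170 CPM in D2 Con 1 to 5. D2 Res 4 and D2 Con 3 were less than 1 CPM apart, and the other libraries lay wider. The difference was -0.19 ± 0.07. It was the 1 of 14 GABA-A receptor genes that was called (7.14%, against 3.02% of all genes), while the median of the 14 was 0.06. With the block 1 of the 14 rose and 2 fell, against 3.09% and 2.14% of all genes.

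*Cog7*, a subunit of the Golgi tethering complex COG, had the largest difference of the 12 relative to its error. It read 86.0, 85.3, 83.2, 83.1 and 89.2 CPM in D2 Res 1 to 5 and 97.3, 93.1, 92.9, 95.1 and 94.2 CPM in D2 Con 1 to 5. The groups did not overlap, with a difference of -0.15 ± 0.04. D2 Sus stood with D2 Con for this gene, at 89.9 to 98.9 CPM, and D2 Res was lower than D2 Sus too (-0.14 ± 0.04).

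*Syt11*, a synaptotagmin of vesicle trafficking that does not bind calcium, was the most abundant of the 12. It read 1073, 1118, 1148, 1087 and 1050 CPM in D2 Res 1 to 5 and 1310, 1153, 1159, 1173 and 1184 CPM in D2 Con 1 to 5. D2 Con 1 stood far above the other D2 Con libraries, which lay close to D2 Res 3. The difference was -0.13 ± 0.04. *Syt11* was the 1 of 38 genes of vesicle release that was called (2.63%).

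*Snrpb*, a core protein of the spliceosome, was at 36.6 to 44.6 CPM in D2 Res and 45.6 to 50.7 in D2 Con (-0.20 ± 0.07). *Cmtr2*, which methylates the mRNA cap, was at 6.78 to 8.25 against 8.31 to 9.06 CPM (-0.19 ± 0.09). It was lower in D2 Res than in D2 Sus as well (-0.27 ± 0.09). *Taf6l*, of a histone acetyltransferase complex, was at 9.28 to 9.94 against 10.2 to 12.1 CPM (-0.16 ± 0.07). *Zfp574* was at 29.4 to 31.8 against 33.5 to 34.4 CPM (-0.14 ± 0.05). With the block within the 10 libraries *Cmtr2* (-0.19 ± 0.10) and *Taf6l* (-0.16 ± 0.09) were not called at folds that hardly moved, and with the block over 28 IPs both were.

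The remaining 5 were *Slc25a15*, the ornithine carrier of mitochondria (-0.22 ± 0.09), *Srrd* (-0.22 ± 0.09), the ribosomal oxygenase gene *Riox1* (-0.21 ± 0.08), the tumour suppressor gene *Rassf1* (-0.19 ± 0.08) and *Leprot* (-0.18 ± 0.07), which acts in receptor trafficking. Their lower bounds in D2 Con and upper bounds in D2 Res were close, for *Slc25a15* 9.09 and 8.81 CPM and for *Leprot* 26.1 and 25.8 CPM. *Srrd* overlaps *Tfip11* on the opposite strand. Single libraries decided the calls of *Slc25a15* (-0.19 without D2 Con 3), *Srrd* (-0.18 without D2 Con 5), *Snrpb* (-0.15 without D2 Res 2) and *Rassf1* (-0.17 without D2 Con 3, D2 Con 5 or D2 Res 2), and those of *Cmtr2* and *Taf6l* were lost without any 1 of 5 and of 3 libraries.

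Nuclear-encoded genes of oxidative phosphorylation lay below zero almost throughout, by small amounts. Of 74 tested, 4 fell and 1 rose (6.76%, against 3.02% of all genes), and 73 had a log2 fold change below zero, with a median of -0.10. Among all tested genes with a mean of at least 100 CPM, 62.3% lay below zero and the median was -0.02. By complex, 35 of 35 genes of complex I, 4 of 4 of complex II, 9 of 9 of complex III, 9 of 10 of complex IV and 16 of 16 of ATP synthase lay below zero. With the number as a block 20 of 73 fell, against 2.14% of all genes.

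Of the 4 that fell, *Uqcrc1* and *Cyc1* belong to complex III, *Sdhb* to complex II and *Atp5b* to ATP synthase. *Atp5b*, the catalytic beta subunit, read 1291, 1202, 1393, 1307 and 1306 CPM in D2 Res 1 to 5 and 1538, 1307, 1397, 1410 and 1352 CPM in D2 Con 1 to 5. The groups overlapped, D2 Con 1 was the highest and D2 Res 2 the lowest, and the difference was -0.11 ± 0.05. *Uqcrc1* read 222, 212, 226, 229 and 238 CPM in D2 Res 1 to 5 and 274, 228, 243, 243 and 236 CPM in D2 Con 1 to 5 (-0.12 ± 0.05). *Cyc1* differed by -0.14 ± 0.06 and *Sdhb* by -0.13 ± 0.06. The 1 gene that rose, the muscle isoform gene *Cox6a2*, was under 0.5 CPM in all 10 libraries.

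These counts rested on single libraries. The summed level of the list was 9718, 7899, 9544, 9036 and 9115 CPM in D2 Res 1 to 5 and 10920, 8995, 9443, 9589 and 9377 CPM in D2 Con 1 to 5, so that D2 Res was below D2 Con in 4 of 5 numbers. Without D2 Con 1 the number that fell was 0 and the median -0.04, and without D2 Res 2 it was 0 and -0.03. Without D2 Res 1 the number that fell was 19. In D2 Sus against the same controls the median was -0.11, with 2 that fell and 1 that rose. In D1-MSNs the median of Res against Con was -0.09 with 0 called and 70 of 74 below zero, and in the D2 inputs it was 0.01.

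Proteasome subunits and cytosolic ribosomal proteins had a like picture without a call. Of 35 proteasome genes 33 lay below zero, with a median of -0.07 and 0 called. Of 79 ribosomal protein genes 67 lay below zero, with a median of -0.05 and 0 called. With the block 2 of 35 proteasome and 6 of 77 ribosomal protein genes fell. The share was 2.14% of all genes and 3.39% of those with a mean of at least 100 CPM. D2 Con 1 held the highest sum for both lists, 3961 CPM for the proteasome and 7972 CPM for ribosomal proteins, and D2 Res 2 the lowest, 3096 and 5824 CPM.

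Immediate early genes, which neuronal activity induces within minutes, were on the low side in D2 Res without a call. Of 24 tested, 0 passed and 21 lay below zero, with a median of -0.12. Among all tested genes 50.4% lay below zero, and 62.3% of those with a mean of at least 100 CPM. *Nr4a1* read 62.5, 72.6, 59.3, 63.3 and 73.2 CPM in D2 Res 1 to 5 and 108, 61.5, 71.7, 85.6 and 101 CPM in D2 Con 1 to 5. D2 Con 2 and D2 Con 3 lay within the D2 Res range, and the difference was -0.37 ± 0.24. *Junb* read 70.5, 91.1, 84.3, 61.3 and 77.8 CPM in D2 Res 1 to 5 and 103, 75.7, 79.0, 96.0 and 108 CPM in D2 Con 1 to 5 (-0.27 ± 0.15). With the block 5 of the 24 fell at the unadjusted threshold, against 2.14% of all genes, namely *Junb*, *Egr4*, *Nr4a1*, *Dusp1* and *Per1*. The summed level of the list was below D2 Con in numbers 1, 4 and 5 and above it in 2 and 3. In D2 Sus against the same controls the median was -0.09, with 17 of the 24 below zero and 0 called. In the inputs the median was 0.01 with 0 called, and in D1-MSNs it was 0.02 with 0 called.

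**Figure D4:**
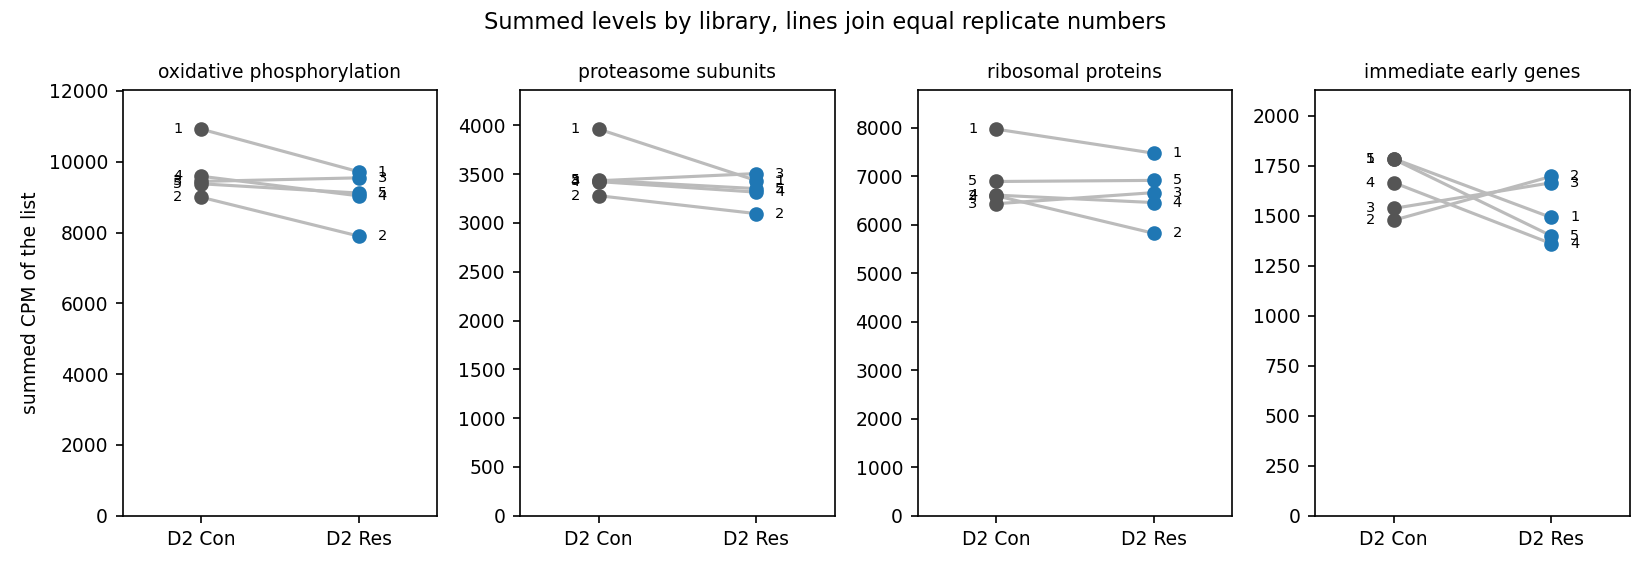
Summed CPM of oxidative phosphorylation, proteasome, ribosomal protein and immediate early genes in each D2 Con and D2 Res library, with lines joining libraries of equal number. Oxidative phosphorylation sums run from 7899 to 9718 CPM in D2 Res and from 8995 to 10920 in D2 Con, and the groups overlap in all 4 lists.

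Markers of MSN identity did not pass the test. Of 10 genes that mark D2-MSNs 0 were called, with a median of -0.06, and of 10 listed for D1-MSNs 0 were called, with a median of 0.01. Of the latter, *Tacr3* was not higher in the D1 IPs here, at a median of 6.11 CPM against 7.30 in the D2 IPs. The others were higher in the D1 IPs at the median. *Drd2* was at 330 ± 32.3 CPM in D2 Res and 335 ± 22.9 in D2 Con (mean ± SD), a log2 difference of -0.02 ± 0.08 with a 95% interval from -0.19 to 0.14. *Adora2a* stood at -0.12 ± 0.09, *Penk* at -0.07 ± 0.09 and *Gpr6* at -0.14 ± 0.10, all with overlapping groups. Of 32 genes of cAMP signalling in MSNs, 0 were called, with a median of -0.02 (2 fell with the block, against 2.14% of all genes).

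Glutamate receptors and their partners gave no call in most lists. *Shisa6*, which encodes an auxiliary subunit of AMPA receptors, read 9.58, 10.1, 11.1, 8.38 and 9.98 CPM in D2 Res 1 to 5 and 8.43, 8.08, 10.6, 9.87 and 10.1 CPM in D2 Con 1 to 5. The groups overlapped over nearly their whole range, and the log2 difference was 0.06 ± 0.13 with a 95% interval from -0.21 to 0.33. Of 24 AMPA and kainate receptor genes, 13 NMDA and metabotropic receptor genes and 23 scaffold genes, 0 were called, with medians of 0.01, -0.01 and 0.01. Among 37 adhesion genes 1 rose (2.70%), *Lrrtm2*, a postsynaptic partner of neurexins. It read 77.2, 84.9, 82.7, 78.7 and 60.3 CPM in D2 Res 1 to 5 and 63.1, 66.4, 75.4, 70.5 and 56.9 CPM in D2 Con 1 to 5, above D2 Con in each number though the groups overlap through the libraries numbered 5. It rose by 0.21 ± 0.09, and by 0.21 ± 0.05 with the block. In that fit 3 of the 37 adhesion genes rose, against 3.09% of all genes. *Lrrtm2* lies within *Ctnna1* on the opposite strand.

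Among the ion channel genes, *Kcnt2*, a sodium-activated potassium channel gene, read 7.53, 10.7, 8.51, 8.25 and 7.55 CPM in D2 Res 1 to 5 and 5.33, 7.20, 7.82, 6.80 and 5.46 CPM in D2 Con 1 to 5. D2 Con 3 lay within the D2 Res range, and the rise was 0.38 ± 0.16. *Kcnab2*, an auxiliary beta subunit of potassium channels, differed by -0.10 ± 0.04. It was not called with the block within the 10 libraries at the same fold (-0.10 ± 0.05), was called with the block over 28 IPs, and overlaps *Nphp4* on the opposite strand. Of 22 sodium and calcium channel genes 0 were called, with a median near zero.

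Ligands and receptors of the other systems gave 1 call. *Vgf*, a neurotrophin-induced precursor of secreted peptides, read 409, 436, 435, 479 and 482 CPM in D2 Res 1 to 5 and 560, 487, 438, 494 and 484 CPM in D2 Con 1 to 5. D2 Con 1 was the highest and D2 Con 3 lay within the D2 Res range, and the difference was -0.14 ± 0.06. It is the called gene of both the list of 17 neurotrophins and receptors (5.88%) and the list of 39 peptide genes (2.56%). Of 30 monoamine and acetylcholine receptors, 11 endocannabinoid genes and 22 genes of glucocorticoid and CRH signalling, 0 were called. With the block 2 of 20 glucocorticoid and CRH genes fell, against 2.14% of all genes.

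Lists of intracellular pathways gave few calls without the block, at 0 to 4.55% of their genes, against 3.02% of all genes. *Ctnnb1*, which encodes beta-catenin, stood at -0.06 ± 0.07 (95% interval -0.20 to 0.08) and *Dicer1*, of microRNA processing, at 0.05 ± 0.07 (95% interval -0.09 to 0.18), neither of them called. Of 39 genes of the Wnt and beta-catenin pathway, 0 were called. *Clock* was the 1 of 22 clock genes that rose (0.11 ± 0.05), *Eed* of Polycomb repressive complexes the 1 of 51 chromatin enzymes (0.16 ± 0.07), and the S6 kinase gene *Rps6kb1* the 1 of 27 mTOR and AKT genes (0.13 ± 0.06). With the block 1 of the 22 clock genes rose and 3 fell, against 3.09% and 2.14% of all genes. Among 48 chaperone genes, *Bag3*, a co-chaperone of selective autophagy, rose by 0.38 ± 0.17 (0.36 ± 0.20 and not called with the block within the 10 libraries, called with that over 28 IPs) and *Calr*, a calcium-binding chaperone of the endoplasmic reticulum, differed by -0.12 ± 0.05 and was called lower. *Ctnnb1*, *Eed* and *Rps6kb1* overlap genes on the opposite strand. Of the genes called through these lists, only *Gabrd* and *Syt11* kept their call whichever 1 of the 10 libraries was left out.

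**Figure D5:**
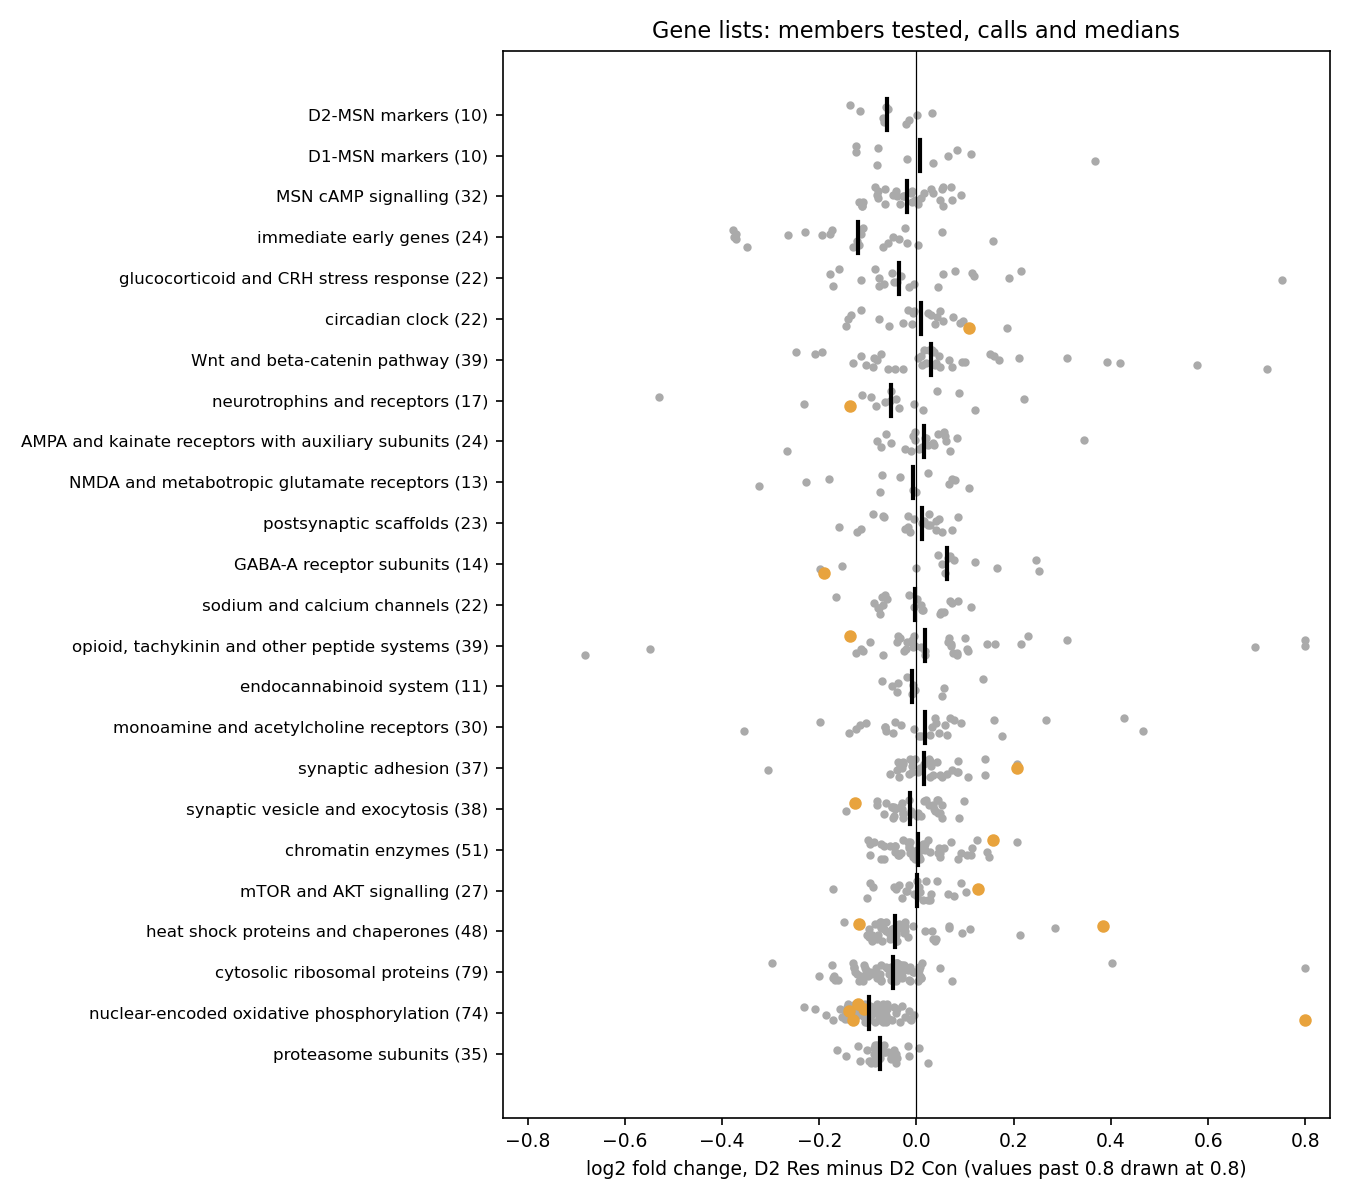
Log2 fold change, D2 Res minus D2 Con, of the tested members of the gene lists described, with a black bar at the list's median and genes past an unadjusted p of 0.05 in orange. Values beyond 0.8 are drawn at the edge, and the 74 oxidative phosphorylation genes sit almost wholly below zero around a median of -0.10.

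Transcripts of other cell types were present in the IPs and partly moved with the groups. Of 13 oligodendrocyte genes 13 lay above zero with a median of 0.14, and *Pdgfra* of their precursors rose (0.56 ± 0.25; 7.69% called, against 3.02% of all genes). Their summed level was 436 to 641 CPM in D2 Res and 464 to 568 in D2 Con, with none of the 13 at 0 in any of the 10 libraries. Of 12 endothelial and mural genes 10 lay above zero with a median of 0.29, and *Flt1* rose (0.49 ± 0.22; 8.33% called), with sums of 29.5 to 39.9 against 26.1 to 32.0 CPM. With the block 3 of the 12 rose, against 3.09% of all genes. Of 10 astrocyte genes 5 lay above zero with a median of 0.02, and *Gjb6* rose (0.68 ± 0.28; 10% called), with sums of 332 to 482 against 332 to 443 CPM. *Gjb6* lost its call without D2 Con 3 or D2 Res 4, and *Pdgfra* and *Flt1* without any 1 of 5 libraries. The part of these cell types in the other differences was not tested.

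Of 13 cortical and glutamatergic genes 0 were called, with sums of 336 to 647 CPM in D2 Res and 401 to 626 in D2 Con. Of 11 cholinergic genes 0 were called, with sums of 257 to 311 against 235 to 308 CPM. The 12 genes of other interneurons, 11 of microglia and 7 of choroid plexus and ependyma gave 0 calls. *Alas2*, the 1 blood gene that could be tested, was called higher at under 0.5 CPM and overlaps *Apex2* on the opposite strand, and *Prdm16*, 1 of 10 genes of neighbouring regions, fell (-0.41 ± 0.15; -0.29 and not called without D2 Res 4). *Lars2*, a mitochondrial leucyl-tRNA synthetase gene, was called lower (-1.49 ± 0.54). It stood at 6054 CPM in D2 Con 2, where *Rn45s* was highest too, and at 679 to 1548 CPM in the other D2 Con libraries.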

How the data were processed

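RNA from HA immunoprecipitates was sequenced as stranded poly-A libraries. The deposited values are raw counts per gene symbol, which the authors made with cutadapt, STAR and HTSeq on mm10; versions, annotation and the strand setting are not given in the sources used here. Entries that name no gene held 19.8 to 27.2% of reads in D2 Res and 19.4 to 27.0% in D2 Con and were left out. Of the columns, 2 matched no sample and were not used. Counts were scaled by TMM and tested with edgeR 4.0.16 (R 4.3.3, limma 3.58.1) in 1 model of 28 IP libraries with 6 group means, after genes of low counts were removed by filterByExpr (min.count 10, min.total.count 15). Benjamini-Hochberg adjustment ran over all genes tested, and inputs were fitted separately. SEs follow from the quasi-likelihood F statistic, and 95% intervals use 22 degrees of freedom. P-values measure the spread between pools.

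Libraries with equal numbers in D2 Res and D2 Con correlated in their deviations from the group means by 0.20 to 0.44 over 10444 genes, against -0.27 to 0.12 for unequal numbers. The numbers were therefore also fitted as a block. This rests on the data, since the labels give the numbers without their meaning. No pair of replicates was a duplicate.

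Named genes are those past an adjusted p of 0.05 (none without the block), the up to 12 called genes in each direction with the largest change among those of at least 5 CPM whose groups do not overlap and whose symbol is not a predicted or clone name, up to 4 called members with the lowest p in each list, and *Shisa6*, *Drd2*, *Adora2a*, *Penk*, *Gpr6*, *Ctnnb1* and *Dicer1*. The chromosome 2 genes, *Rec8*, *Tmem181b-ps*, *Sdhb*, *Nr4a1*, *Junb*, *Grin2b*, *Rn45s*, *Lars2*, the called cell type markers and other genes named outside this rule were picked with their values in view. The members and gene lists were chosen with earlier results of these data known. Alternatives were RLE factors, other filters, DESeq2 1.42.0, fits of 10 or 15 libraries, the block, and each library left out. The fits were tested on simulated counts with known folds. Those counts held no effect of the library number, so they do not test the block where numbers matter. A few list results are not reported here.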

Additional observations from a re-analysis of the deposited data

Results flagged for a closer look

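Of 120 pairs of a named gene and a group, 9 held a library that stood apart from the other 4 of its group by Dixon's criterion, which chance meets in about 1 in 20. Among D2 Res libraries, number 2 read 8.53 CPM for *Faap100* (others 6.49 to 7.06), 36.6 for *Snrpb* (others 42.7 to 44.6) and 11.6 for *Rassf1* (others 12.1 to 12.3), and number 4 read 7.12 for *Gm14322* (others 4.64 to 5.06). Among D2 Con libraries, number 1 read 1310 CPM for *Syt11* (others 1153 to 1184), 102 for *Clock* (others 115 to 120) and 149 for *Sdhb* (others 118 to 124). D2 Con 5 read 12.1 CPM for *Taf6l* (others 10.2 to 10.7) and 437 for *Ctnnb1* (others 504 to 525).

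A Res effect here is Res minus Con, so it holds both the defeat and its outcome. That effect in D2-MSNs minus that in D1-MSNs was tested for 60 named genes. Of these, 15 differed at an unadjusted p of 0.05 in edgeR, against 2.36% of all genes, with 0 of all genes past adjustment. These values are log2 differences ± SE. The effect was more positive in D2 for *Rec8* (1.20 ± 0.51), *Gm14322* (0.95 ± 0.36), *Zfp970* (0.75 ± 0.30), *Chpt1* (0.45 ± 0.21), *Surf2* (0.31 ± 0.12), *Jdp2* (0.28 ± 0.13), *Eed* (0.22 ± 0.10), *Kdsr* (0.21 ± 0.07) and *Suco* (0.18 ± 0.07). It was more negative in D2 for *Taf6l* (-0.26 ± 0.11), *Zfp574* (-0.24 ± 0.07), *Vgf* (-0.23 ± 0.09), *Kcnab2* (-0.16 ± 0.07), *Cog7* (-0.16 ± 0.06) and *Syt11* (-0.15 ± 0.06). The 60 genes were in part named for their D2 difference, which the interaction shares, so the count of 15 is not an independent test.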

How the results depend on the processing

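With the replicate block within the 10 libraries, 706 genes passed an unadjusted p of 0.05 against 430 without it, and 7 against 0 an adjusted p of 0.05. With the replicate block over 28 IPs, 690 genes passed for D2 Res against D2 Con and 568 for the difference between D2 and D1 (335 without it), and 0 passed adjustment. Added after seeing the data, the block without both libraries of 1 number gave 645, 631, 919, 535 and 692 genes without numbers 1 to 5, of which 4, 4, 4, 7 and 6 passed adjustment. Leaving out any 1 library gave 331 to 590 genes at the unadjusted threshold, the lowest without D2 Res 2 and the highest without D2 Res 5, and 0 after adjustment. Without D2 Res 5 the share of calls that were higher was 62% against 51.9%. RLE factors gave 431 genes, DESeq2 434, no filter 612, a mean of at least 50 counts 341, the 10 libraries alone 347 and the 15 D2 IPs 324, each with 0 after adjustment.

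The count of chromosome 2 genes that rose stayed at 7 to 9 in every alternative run, block fits included. Oxidative phosphorylation genes that fell numbered 0 to 19 when 1 library was left out, and 0 in the fit of 10 libraries alone. Immediate early genes that fell numbered 0 to 4 when 1 library was left out, the highest without D2 Con 2, and 4 in the fit of 10 libraries. The sign turned for 3 genes that were never called. *Drd2* ran from -0.067 to 0.024 over the fits without 1 library, at 0.013 without D2 Con 5 and 0.024 without D2 Res 5, and stood at 0.056 in the block without number 5 and 0.058 without replicate 5 of both groups. *Dicer1* ran from -0.00063, without D2 Con 1, to 0.078. *Zfp931* ran from -0.029 to 0.14, at -0.01 without D2 Con 1 and -0.029 without D2 Con 5, and stood at -0.073 in the block without number 5 and -0.078 without replicate 5 of both groups. Of 51 named genes that were called, 19 passed in each of these fits other than those that leave out both libraries of 1 number, and 0 changed sign. The 19 were *Zfp970*, *Zfp971*, *Gm14305*, *Gm14403*, *Gm14322*, *Gm14325*, *Gm14326*, *Sh3d19*, *Chpt1*, *Faap100*, *Jdp2*, *Surf2*, *Suco*, *Riox1*, *Gabrd*, *Leprot*, *Cog7*, *Zfp574* and *Syt11*. The cause of these shifts was not tested. Depth limits the genes under 1 CPM, whose folds rest on few counts.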
